A study of Mus musculus with 23 samples.

Results

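The members described here are the mouse genes of the cell division families: the Mcm and Orc replication proteins, the centromere (Cenp), Bub, Cdc20 and Ndc80 kinetochore genes, the Aurora, Polo-like and Cdca mitotic factors, the A, B, D and E cyclins, the cyclin-dependent kinases Cdk1 and Cdk2 and those whose number begins with 1 or 2, the Cdkn inhibitors and the E2f transcription factors, with Cdc6, Cdc25, Cdc45, Top2a, Mki67 and Ube2c. They were chosen by the start of the annotated symbol, which uses no measured value, though the families were picked with earlier results of these data known. The rule found 107 probe sets with 106 symbols (E2f3 has 2 probe sets) among the 22203 probe sets of the array. The symbol start also takes in genes that are named after a family without belonging to it in function, such as Cdkn2aip, Ube2cbp and Ccndbp1. No probe set carried the symbol Ccnb1, Ccnd1 or Mcm7, and these genes were not analysed here.

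The cell division cycle is driven by cyclin-dependent kinases that become active on binding a cyclin. D cyclins start the passage through G1 by phosphorylating the retinoblastoma protein, which frees E2f factors to switch on the genes of DNA replication, and B cyclins with Cdk1 drive mitosis. Inhibitors such as p21, the product of Cdkn1a, bind the kinases and hold the cycle. Microglia, the resident macrophages of the brain, divide rarely in the healthy adult and can divide more in disease.

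Microglia, taken as CD45+ and CD11b+ cells from cortex and hippocampus, were profiled on arrays in 23 samples of 6 groups. The WT groups, of C57BL6 mice, were aged 3 months (4 samples) and 12 months (4 samples). The APP groups carry APPswlnd, a model of amyloid pathology, and were aged 3 months (3 samples, before pathology) and 12 months (4 samples, with pathology). The TAU groups carry P301S (PS19), a model of tau pathology, and were aged 3 months (4 samples) and 9 months (4 samples). The 8 samples of the pathological APP and TAU mice held cells sorted as positive for Clec7a, a lectin receptor of activated microglia, and are called gated here. No such gate is named for WT or for the young mice, so strain, pathology and gate differ together between the gated and the other samples and cannot be told apart. Age differs with them between gated TAU (9 months) and aged WT or gated APP (12 months), and between gated and young samples. The titles of the gated TAU samples say 12 months, while their age field says 9 months, which was used. The labels call the replicates biological without saying that each is a separate animal, and p-values therefore measure the spread between samples. The promoters of the transgenes and the sex of the mice are not given. In bulk samples, fewer cells of a type and less RNA per cell cannot be told apart.

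The values are log2 signals per probe set as deposited. Array medians lay between 6.87 and 7.13, and no pair of samples correlated above 0.9914. All 10 measured microglia markers, among them P2ry12, Tmem119 and Csf1r, were above background in every group. The mean of 3 Y-linked probe sets varied within and between groups, from 4.14 to 4.62 in young APP and from 6.98 to 7.46 in young WT. WT 12 months replicates 2 and 4 had the highest 95th percentiles of chemosensory receptor signals of all arrays (8.71 and 8.72).

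Most cell division probe sets were at background in these cells. Background was taken in each group as the 95th percentile of the group means of 1462 chemosensory receptor probe sets, genes of smell and taste, and lay between 7.72 and 8.11. By this measure 38 of the 107 members (35.5%) were above background in at least 1 group, against 41.1% of all probe sets. Of these, 24 were above it in all 6 groups, and 69 members (64.5%) were above it in none. The number above background by group mean was 35 in young WT, 29 in young APP, 32 in young TAU, 26 in aged WT and 32 in each gated group. Aged WT had the highest background (8.11) and also the lowest share of all probe sets above it (32.7%, other groups 34.1% to 37.5%). Its single arrays had 29, 16, 44 and 17 members above their own background. The range was 23 to 39 in gated APP arrays and 26 to 36 in gated TAU arrays. With the 99th percentile as background, 23 members were above it in at least 1 group.

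The roles differed in how much was detected. Of the cyclin-dependent kinases and their binding proteins, 10 of 14 probe sets were above background in at least 1 group. So were 8 of 16 licensing and origin genes and 4 of 9 E2f probe sets. The shares were lower for kinetochore and checkpoint genes (7 of 26), cyclins (3 of 10), inhibitors (3 of 10) and mitotic kinases, phosphatases and factors (3 of 22). The 3 cyclin probe sets were Ccnb2, Ccnd3 and the binding protein Ccndbp1. The 3 counted as inhibitors were Cdkn1a and, only named after Cdkn2a, Cdkn2aip and Cdkn2aipnl. Of the reference genes of the cycle, Mcm3 and Ccnd3 were above background in all 6 groups and Mcm2 and Ccnb2 in some. Many others were at background in all 6: Mki67 (the Ki-67 antigen), Top2a (topoisomerase II), Cdk1, Ccna2, Aurka, Aurkb, Plk1, Bub1, Cdc20, Ube2c, Mcm4, Mcm5 and Mcm6. So were the inhibitors Cdkn1b and Cdkn2a, and E2f1. E2f6 lay on the threshold in gated TAU (0.0 from it) and counts as at background. Just below it lay Cenpc1 (0.04 under it at the nearest), Aurkc (0.07 under) and Mki67 (0.1 under, in gated APP). Just above it lay Cdk2ap2 (0.01 over), Mcm2 (0.2 over) and Mcm9 (0.21 over).

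**Figure D1:**
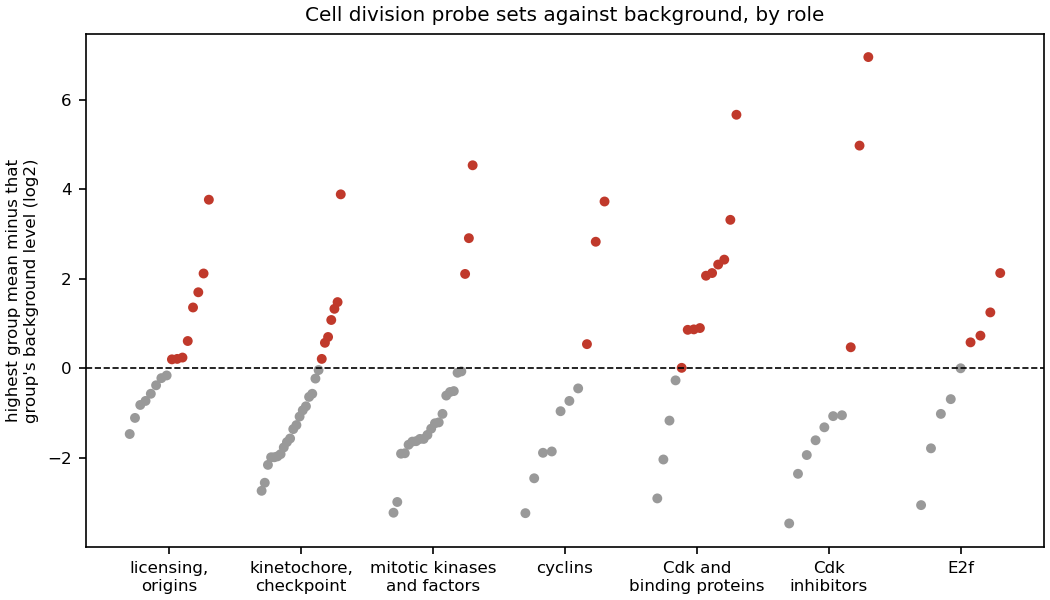
Each point is 1 of the 107 probe sets, placed by its role on the horizontal axis; the vertical axis gives its highest group mean minus the background of that group, in log2 units. Red points (38) are above background in at least 1 group and grey points (69) in none, and the mitotic kinases and factors have 3 red points of 22.

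Many of these genes share promoter elements through which their transcription follows the cycle: the E2F site of replication genes, and the cell cycle homology region (CHR) that acts together with CCAAT boxes in mitotic genes. RefSeq promoter windows on GRCm38.p6, each from 250 bases before to 50 bases after a transcript start, were found for 94 of the 106 symbols (109 windows). On both strands, the CHR letters TTTGAA were in 26.6% of the member windows and in 17.9% of all 32851 windows, and CCAAT was in 63.3% against 37.4%. Any of the E2F letters TTTCCCGC, TTTGGCGC, TTTCGCGC and TTTGCCGC was in 16.5% against 2.26%, with the highest share among the licensing and origin genes (38.9% of 18 windows). CHR letters were in 45% of the 20 windows of mitotic kinases and factors. The windows of Cdk1, Mki67 and Ccnb2 are shown because these mitotic genes had higher signals in gated APP than in aged WT, and those of Cdkn1a and Plk2 because they had the largest differences from aged WT above background. All run 5′ to 3′ on the gene's strand. Capitals mark CHR, CCAAT and E2F letters on either strand.
Cdk1: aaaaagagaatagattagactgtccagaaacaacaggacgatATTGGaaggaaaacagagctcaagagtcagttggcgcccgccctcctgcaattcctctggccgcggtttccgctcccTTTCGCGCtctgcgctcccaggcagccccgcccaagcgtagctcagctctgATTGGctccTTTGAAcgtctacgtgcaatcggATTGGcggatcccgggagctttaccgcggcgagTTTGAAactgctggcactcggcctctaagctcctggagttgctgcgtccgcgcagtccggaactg
Mki67: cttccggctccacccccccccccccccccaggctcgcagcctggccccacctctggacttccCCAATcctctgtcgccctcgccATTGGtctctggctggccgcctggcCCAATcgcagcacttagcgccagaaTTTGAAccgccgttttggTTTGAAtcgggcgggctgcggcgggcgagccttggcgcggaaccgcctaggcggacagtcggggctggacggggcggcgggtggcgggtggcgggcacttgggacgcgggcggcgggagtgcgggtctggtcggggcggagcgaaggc
Ccnb2: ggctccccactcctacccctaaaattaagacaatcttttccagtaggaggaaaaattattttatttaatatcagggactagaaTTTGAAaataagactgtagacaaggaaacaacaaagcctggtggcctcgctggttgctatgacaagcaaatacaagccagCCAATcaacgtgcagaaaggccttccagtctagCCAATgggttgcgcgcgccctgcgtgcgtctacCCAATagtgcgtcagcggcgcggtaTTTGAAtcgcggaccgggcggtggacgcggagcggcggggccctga
Cdkn1a: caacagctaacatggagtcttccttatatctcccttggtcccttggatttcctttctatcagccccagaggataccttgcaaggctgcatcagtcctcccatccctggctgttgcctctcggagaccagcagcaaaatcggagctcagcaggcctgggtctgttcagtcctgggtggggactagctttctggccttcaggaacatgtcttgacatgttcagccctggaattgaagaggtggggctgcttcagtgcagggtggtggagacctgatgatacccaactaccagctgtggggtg
Plk2: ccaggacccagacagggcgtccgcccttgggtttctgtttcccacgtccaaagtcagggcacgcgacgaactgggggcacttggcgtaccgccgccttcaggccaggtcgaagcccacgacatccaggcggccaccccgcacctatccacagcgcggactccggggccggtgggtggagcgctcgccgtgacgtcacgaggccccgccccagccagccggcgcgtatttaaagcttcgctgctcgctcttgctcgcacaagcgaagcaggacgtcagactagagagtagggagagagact

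The window of Cdk1 (chr10:69352863-69353162, minus strand) holds 2 CHR matches, 3 CCAAT boxes and 1 E2F match. Those of Mki67 (chr7:135716330-135716629, minus strand) and Ccnb2 (chr9:70421505-70421804, minus strand) hold 2 CHR matches and 3 CCAAT boxes each. Neither the upstream of the 2 Cdkn1a windows, which is printed (chr17:29090729-29091028, plus strand), nor the downstream one, nor the Plk2 window (chr13:110394794-110395093, plus strand) holds any of these letters. A match describes letters and not binding, and the absence of one says only that these letters are not in the window.

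Against aged WT, both gated groups changed in few members and at the rate of the array as a whole. In gated APP, 8 members rose and 1 fell (limma, Benjamini-Hochberg adjusted p under 0.05 over all probe sets), which is 8.41% of the 107 against 9.08% of all probe sets (5.6% higher and 3.48% lower). In gated TAU, 8 rose and 1 fell, 8.41% against 8.76% (5.09% higher and 3.67% lower). The comparisons share their 4 aged WT samples and are not independent. Among probe sets above background in a compared group, 6 of 32 members (18.8%) were called in gated APP against 20% of all such probe sets, and 5 of 32 (15.6%) against 19% in gated TAU. The median log2 difference of the members was 0.04 in gated APP (all probe sets -0.06) and 0.07 in gated TAU (all probe sets -0.05). With the arrays centred on their medians, the gated APP calls were 8 higher and 0 lower. With only the samples of the compared groups in the fit, 4 members were called in gated APP and 5 in gated TAU. In gated TAU, 5 were also called without WT 12 months replicate 1 or without gated TAU replicate 1.

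**Figure D2:**
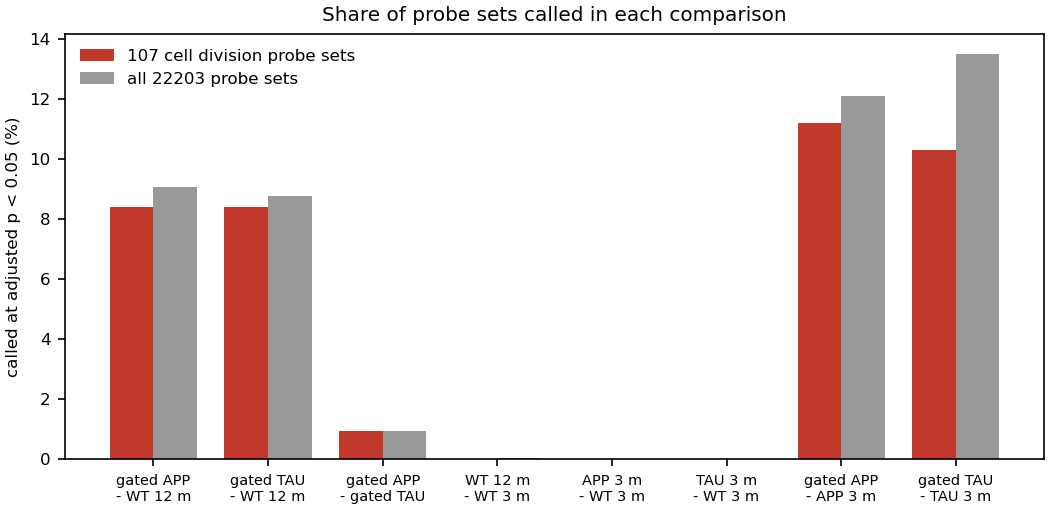
Bars give the percent of probe sets called at an adjusted p under 0.05 in each of 8 comparisons, for the 107 cell division members (red) and all 22203 probe sets (grey). The pair reads 8.41% and 9.08% in gated APP against aged WT, the widest gap is 10.3% to 13.5% in gated TAU against young TAU, and no member was called in the 3 comparisons of ungated groups.

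Among the inhibitors, Cdkn1a, which encodes p21, had the largest difference from aged WT of any member in both gated groups. Its log2 signals in the aged WT samples were 10.39, 10.09, 11.59 and 10.08. They were 14.92, 14.91, 14.95 and 14.12 in gated APP and 13.08, 14.67, 13.73 and 12.74 in gated TAU. Every gated sample was above every one of the 15 ungated samples, of which the young ones spanned 10.37 to 11.51. Cdkn1a rose 18.2-fold over aged WT in gated APP samples (log2 4.19 ± 0.38 SE, adjusted p = 4.29e-08, 14.72 ± 0.40 SD against 10.54 ± 0.72, n = 4 and 4, limma). In gated TAU it was 8.1-fold (log2 3.02 ± 0.38, adjusted p = 7.86e-06, 13.55 ± 0.85 SD, n = 4). Between the gated groups the difference did not pass the test (1.17 ± 0.38, adjusted p = 0.207, limma).

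The rise of Cdkn1a was also seen within each line, at 15.4-fold in gated APP over young APP (adjusted p = 3.7e-07, limma) and 6.39-fold in gated TAU over young TAU (adjusted p = 2.73e-05, limma). It exceeded the change of WT with age by 4.39 ± 0.55 in APP and 3.12 ± 0.53 in TAU on the log2 scale (interaction, adjusted p = 1.95e-05 and 0.000877, limma). No other inhibitor of the family passed against aged WT. Cdkn2aipnl, which carries the name of a Cdkn2a-binding protein, was well detected (12.43 in aged WT, 12.74 in gated APP and 12.63 in the gated TAU group). Cdkn1b (p27) had group means between 5.62 and 6.41 and Cdkn2a (p16 and Arf) at 4.34 or less, all at background. Cdkn2d, at background too, was higher in gated APP than in young APP (6.15 against 5.37, adjusted p = 0.0339, limma), and was not called without APP 3 months replicate 1 or gated APP replicate 2, 3 or 4 (adjusted p 0.0608 to 0.223).

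**Figure D3:**
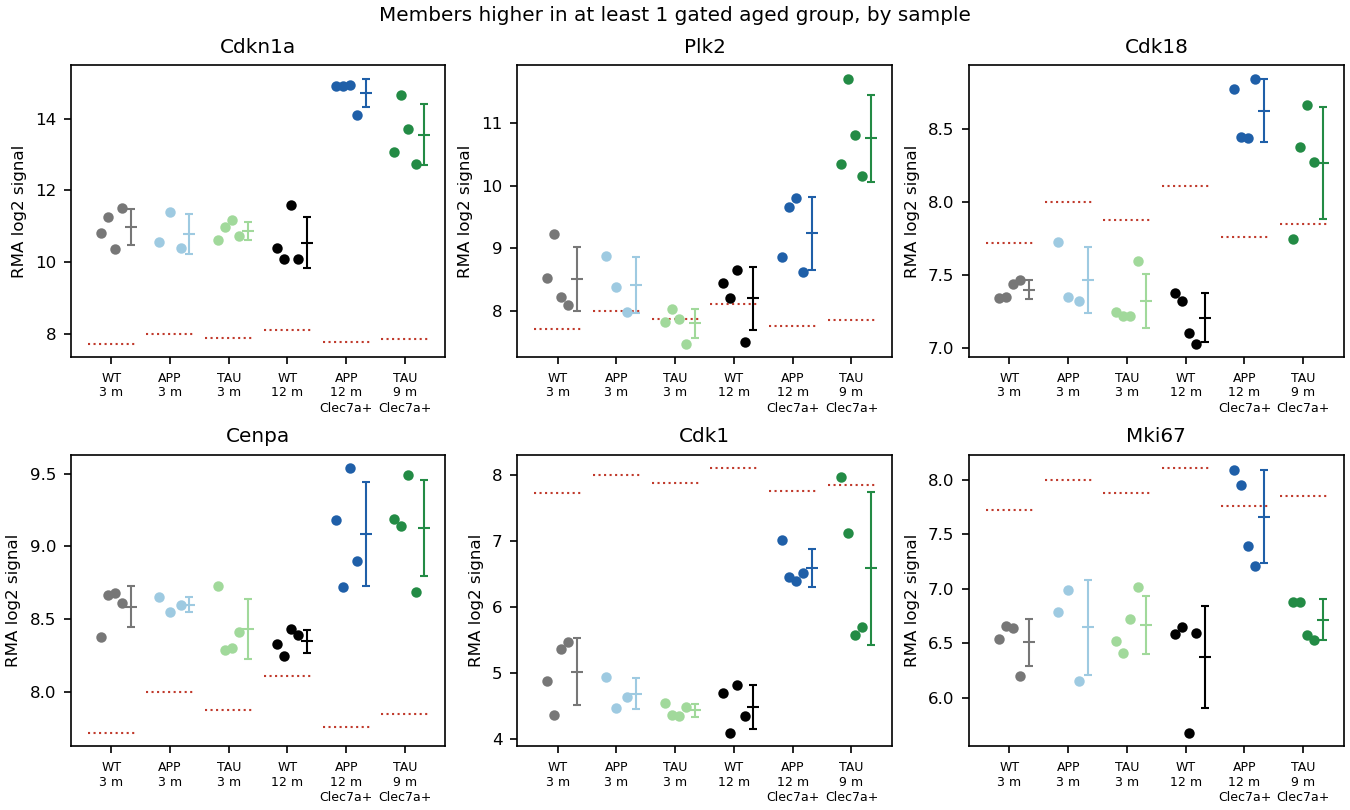
Points are single samples of the 6 groups and the vertical axis is the RMA log2 signal, with its own range in each panel; bars give the mean ± SD and dotted red lines the background of the group. Cdkn1a, Plk2 and Cenpa lie above background in the gated groups, where Cdkn1a samples are at 12.74 or more, while the means of Cdk1 and Mki67 stay under the dotted line in every group.

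Of the mitotic kinases and factors, Plk2 rose in gated TAU and was the one member called between the gated groups. Plk2, a kinase of centriole duplication that is also induced by stress and neuronal activity, measured 8.44, 8.21, 8.66 and 7.50 in aged WT. The gated APP samples were at 8.87, 9.66, 9.80 and 8.62 and the gated TAU samples at 10.34, 11.71, 10.81 and 10.16. All gated TAU samples were above all others, and the gated APP samples overlapped aged WT at 8.62 against 8.66. In gated TAU Plk2 rose 5.87-fold over aged WT (log2 2.55 ± 0.34 SE, adjusted p = 1.78e-05, 10.76 ± 0.69 SD against 8.20 ± 0.50, n = 4 and 4, limma). The gated APP value was 1.04 ± 0.34 (9.24 ± 0.58 SD, n = 4) and missed the threshold (adjusted p = 0.0578, limma). Over young TAU, where it was at background (7.80 ± 0.24 SD, n = 4), the rise in gated TAU was at least 7.31-fold (adjusted p = 1.83e-06, limma), taken against the background level. Its difference between gated and young TAU exceeded that between aged and young WT by 3.26 ± 0.48 (adjusted p = 0.000156, limma). Plk3, a stress-response kinase of the same family, was above background in all groups, at 11.77 in aged WT, 11.27 in gated APP and 12.01 in the gated TAU group, and passed no test.

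Mki67, carried by cycling cells, had a higher signal in gated APP and stayed at background. The aged WT samples measured 6.59, 6.65, 5.68 and 6.60, the gated APP samples 8.09, 7.95, 7.39 and 7.21, and the gated TAU samples 6.88, 6.88, 6.58 and 6.53. The gated APP samples were all higher than those of the other groups, and gated TAU overlapped aged WT. The means were 7.66 ± 0.43 (SD, n = 4) in gated APP and 6.38 ± 0.47 in aged WT (adjusted p = 0.000773, limma), and 6.72 ± 0.19 in gated TAU (adjusted p = 0.441, limma). Of the gated APP samples, replicates 1 and 2 were above the background of 7.76. No fold is given, since both means are at background. Over young APP (6.65 ± 0.43 SD, n = 3) the Mki67 difference was also called (adjusted p = 0.00981, limma), though not without APP 3 months replicate 3 (adjusted p = 0.0923, limma) or with Y-linked expression as a covariate (0.0633).

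Ube2c, the ubiquitin-conjugating enzyme of the anaphase-promoting complex, gave 6.41 in gated APP and 5.62 in aged WT, both at background (adjusted p = 0.0297, limma), with overlapping samples. It was not called without WT 12 months replicate 2 or 3 or gated APP replicate 1 or 3 (adjusted p 0.0767 to 0.114). Aurka (Aurora A) and Cdca3 were called at background only within a line: Aurka in gated TAU against young TAU (6.36 against 5.77, adjusted p = 0.0447, limma) and Cdca3 in gated APP against young APP (6.12 against 5.31, adjusted p = 0.0329, limma). Aurka was not called without any 1 of the 4 young TAU samples or gated TAU replicate 1, 2 or 4 (0.0598 to 0.15), nor Cdca3 without APP 3 months replicate 2 or 3 or gated APP replicate 1 or 3 (0.054 to 0.125). Top2a (5.92 in aged WT, 6.10 in gated APP, 6.27 in gated TAU), Plk1 (7.02, 6.74 and 6.74) and Aurkb (6.42, 6.53 and 6.51) passed no test.

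Among the cyclin-dependent kinases, Cdk1 and Cdk18 were higher in both gated groups. Cdk1, the mitotic kinase, had signals of 4.70, 4.09, 4.81 and 4.34 in aged WT, 7.01, 6.45, 6.39 and 6.51 in gated APP, and 7.97, 7.12, 5.57 and 5.69 in gated TAU. The lowest gated sample, at 5.57, was above the highest of the 15 ungated samples, at 5.47. The gated TAU samples were split, with replicates 1 and 2 high and 3 and 4 low. The Y-linked mean of these samples was split the same way (6.78 and 6.53 in replicates 1 and 2, 5.05 and 4.50 in 3 and 4). With Y-linked expression as a covariate, Cdk1 was still called in gated TAU against aged WT. That fit has 1 slope for all 6 groups, and a link of Cdk1 with the Y-linked signal within gated TAU was not tested. The means were 4.48 ± 0.33 (SD, n = 4) in aged WT, 6.59 ± 0.28 in gated APP and 6.59 ± 1.16 in the gated TAU group, all at background (adjusted p = 0.000397 and 0.00056, limma); 1 gated TAU sample, replicate 1, was above the background of 7.85. The interaction with age was called in both lines (adjusted p = 0.00934 in APP and 0.00359 in TAU, limma), in APP not with Y-linked expression as a covariate (0.1) or without WT 12 months replicates 2 and 4 (0.0637).

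Cdk18, a PCTAIRE kinase of postmitotic as well as dividing cells, crossed the background in the gated groups alone. It measured 7.38, 7.32, 7.10 and 7.03 in aged WT, 8.78, 8.45, 8.44 and 8.85 in gated APP and 7.75, 8.38, 8.67 and 8.28 in gated TAU. Every gated sample was above every ungated one, with gated TAU replicate 1 close to APP 3 months replicate 1 (7.73). Against the background of aged WT the rise was at least 1.44-fold in gated APP (8.63 against 7.21, adjusted p = 4.82e-06, limma) and at least 1.12-fold in gated TAU (8.27, adjusted p = 3e-04, limma). Its difference between gated and young samples exceeded that between aged and young WT in APP (adjusted p = 0.00236) and TAU (adjusted p = 0.00935, both limma). The related Cdk17 rose at least 1.42-fold in gated APP (8.62 against 7.91, adjusted p = 0.0401, limma) and was at 8.58 in gated TAU (adjusted p = 0.0548). The Cdk17 call in gated APP was lost without WT 12 months replicate 1 or 2 or gated APP replicate 1, 2 or 3 (adjusted p 0.0577 to 0.177).

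Other members of the group were lower in the gated cells, in part of the comparisons. Cdk2ap1, which binds Cdk2 and holds it back, measured 9.82, 9.37, 10.40 and 9.68 in aged WT and 8.64, 9.17, 9.13 and 8.89 in gated APP, with no overlap. It fell by 0.86 on the log2 scale (SE 0.22, adjusted p = 0.0129, limma). The call was lost without gated APP replicate 1 (adjusted p = 0.0544) and with the arrays centred on their medians (0.0522). In gated TAU Cdk2ap1 was at 9.31 (adjusted p = 0.169, limma). Over young APP, gated APP was lower in Cdk2ap1 (log2 -1.09 ± 0.24, adjusted p = 0.00275) and in Cdk2 (-1.02 ± 0.23, adjusted p = 0.00351, limma), the kinase of S phase entry. Cdk2 against aged WT was -0.56 ± 0.21 (adjusted p = 0.113, limma). Gated TAU was lower than young TAU in Cdk10 (-0.87 ± 0.23, adjusted p = 0.0116) and Cdk16 (-1.09 ± 0.35, adjusted p = 0.0425, limma). Cdk10 was not called without TAU 3 months replicate 3 (0.0508), and Cdk16 not without TAU 3 months replicate 2, 3 or 4 or gated TAU replicate 1, 2 or 3 (0.0557 to 0.143).

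Of the cyclins, Ccnb2, a B cyclin of mitosis, was the single one called against aged WT. It measured 7.70, 7.66, 7.2 and 7.78 in aged WT and 8.41, 8.50, 7.83 and 8.47 in gated APP, where replicate 3 stood well below the others but above all aged WT samples. In gated TAU the values were 7.63, 8.45, 7.75 and 7.43 and overlapped aged WT. Gated APP was at least 1.14-fold above the background of aged WT (8.30 against 7.58, adjusted p = 0.0336, limma) and at least 1.23-fold above that of young APP (adjusted p = 0.00909, limma). The former call was lost without WT 12 months replicate 1, 2 or 3 or gated APP replicate 1, 2 or 4 (adjusted p 0.052 to 0.0876), and the latter without APP 3 months replicate 2 or 3 (0.0508 to 0.0685). Ccnd3, the one D cyclin above background, gave 10.94 ± 0.46 (SD, n = 4) in aged WT, 10.88 ± 0.33 in gated APP and 11.22 ± 0.34 in the gated TAU group, and passed no test. Ccndbp1, a D cyclin-binding protein, was 0.86 ± 0.26 higher in gated TAU than in young TAU (adjusted p = 0.0266, limma), not without TAU 3 months replicate 4 (0.123) or gated TAU replicate 1 (0.098). Ccna2 lay between 5.42 and 5.86 in the group means, at background.

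In the kinetochore group, Cenpa was higher in both gated groups. It encodes the histone H3 variant that marks centromeres. Its signals were 8.33, 8.25, 8.43 and 8.39 in aged WT, 9.18, 8.72, 9.54 and 8.90 in gated APP and 9.19, 9.14, 9.49 and 8.69 in gated TAU, with no overlap between gated and aged WT samples. The rise was 1.66-fold in gated APP (log2 0.73 ± 0.18, adjusted p = 0.00855, limma) and 1.71-fold in gated TAU (0.78 ± 0.18, adjusted p = 0.00652, limma). Without WT 12 months replicates 2 and 4 both calls were lost (adjusted p = 0.0769 and 0.058), at log2 differences of 0.71 and 0.75, and that of gated APP also with the compared groups alone in the fit (0.0683). The interaction of Cenpa with age in TAU was 0.93 ± 0.25 (adjusted p = 0.0388, limma). It was lost on leaving out any 1 of 12 libraries: WT 3 months replicate 2, 3 or 4, TAU 3 months replicate 2, 3 or 4, WT 12 months replicate 1, 2 or 4, or gated TAU replicate 1, 2 or 3 (adjusted p 0.0632 to 0.0913).

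Cenpx, a histone-fold protein of kinetochores and of the Fanconi anaemia complex, rose 1.73-fold in gated TAU (0.79 ± 0.23, adjusted p = 0.0357, limma) with overlapping samples. That call was lost without WT 12 months replicate 1, 2 or 4 or gated TAU replicate 1 or 3 (adjusted p 0.0641 to 0.128). The gated APP value was 0.68 ± 0.23 (adjusted p = 0.0735, limma), and gated TAU over young TAU was 0.94 ± 0.23 (adjusted p = 0.00737, limma). Bub3, a checkpoint protein, was well detected (11.35 in aged WT, 11.55 in gated APP, 11.64 in gated TAU) and passed no test. The checkpoint kinase Bub1 (group means 4.79 to 5.09), the motor Cenpe (5.55 to 5.79) and Cenpf (5.02 to 5.32) were at background.

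No licensing or origin gene, of 16 probe sets, was called in any of the 10 comparisons. Over all probe sets, 9.08% were called in gated APP and 8.76% in gated TAU against aged WT. Against the young mice of the line the shares were 12.1% and 13.5%. Whether no call among 16 differs from these shares was not tested. Of the replicative helicase, Mcm3 was above background in all groups, at 8.64 ± 0.37 (SD, n = 4) in aged WT, 9.12 ± 0.18 in gated APP (adjusted p = 0.155, limma) and 8.93 ± 0.25 in gated TAU (adjusted p = 0.426). Its aged WT samples, at 8.89, 8.46, 8.99 and 8.21, overlapped both gated groups. Mcm2 was near background throughout (7.62 to 7.97). Mcm4, Mcm5 and Mcm6 were below it, with the highest group means at 6.65, 7.12 and 7.54. The origin recognition genes Orc2, Orc3 and Orc4 were detected in every group, with gated APP values of 9.60, 11.43 and 9.17 and aged WT values of 9.70, 11.42 and 9.45.

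E2f calls in gated TAU against aged WT numbered 3 of 9 probe sets (8.76% of all probe sets were called), all at background in both groups. E2f1, an activator of S phase genes, gave 4.79 against 4.12 (adjusted p = 0.0378, limma) and E2f6, a repressor, 7.85 against 7.17 (adjusted p = 0.0302). The gated TAU mean of E2f6 lay on the background level of that group, also 7.85. The E2f1 call was lost without WT 12 months replicate 1, 2 or 4 or gated TAU replicate 1 or 2 (adjusted p 0.0725 to 0.152), and the E2f6 call without the same WT replicates or gated TAU replicate 1 or 3 (0.0533 to 0.121). The probe sets of E2f3, another activator, were both lower in gated TAU, and 1 passed the test. Set 1 was lower in gated TAU (6.76 against 7.91, adjusted p = 0.0181, limma), though not without WT 12 months replicate 1 or gated TAU replicate 1 or 3 (0.0513 to 0.0719). Set 2, which was above background in all groups, was at -0.29 ± 0.24 (adjusted p = 0.52, limma).

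Against the young mice of the same line, 3 of 9 E2f probe sets fell in gated APP (5.95% of all probe sets fell). In gated TAU 1 of 9 fell (6.81% of all). In gated APP, E2f3 set 1 was at least 1.62-fold lower (7.31 against 8.46, adjusted p = 0.0218), set 2 was 0.88 lower on the log2 scale (9.15 to 8.28, adjusted p = 0.0264), and E2f4, the main E2f of resting cells, was 0.82 lower (10.13 to 9.31, adjusted p = 0.0267, all limma). The E2f4 samples were at 9.88, 10.45 and 10.05 in young APP and 8.94, 9.72, 9.42 and 9.16 in gated APP, without overlap. In gated TAU, set 1 of E2f3 was at least 1.24-fold lower than in young TAU (6.76 against 8.17, adjusted p = 0.00241, limma). In APP, set 1 was lost without APP 3 months replicate 2 or 3 or gated APP replicate 1 (0.0522 to 0.205) and set 2 without APP 3 months replicate 2 or gated APP replicate 1 or 4 (0.0653 to 0.227). E2f4 was lost without APP 3 months replicate 2 or 3 or gated APP replicate 1 or 4 (0.0599 to 0.174), and also with centred arrays (0.0705).

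**Figure D4:**
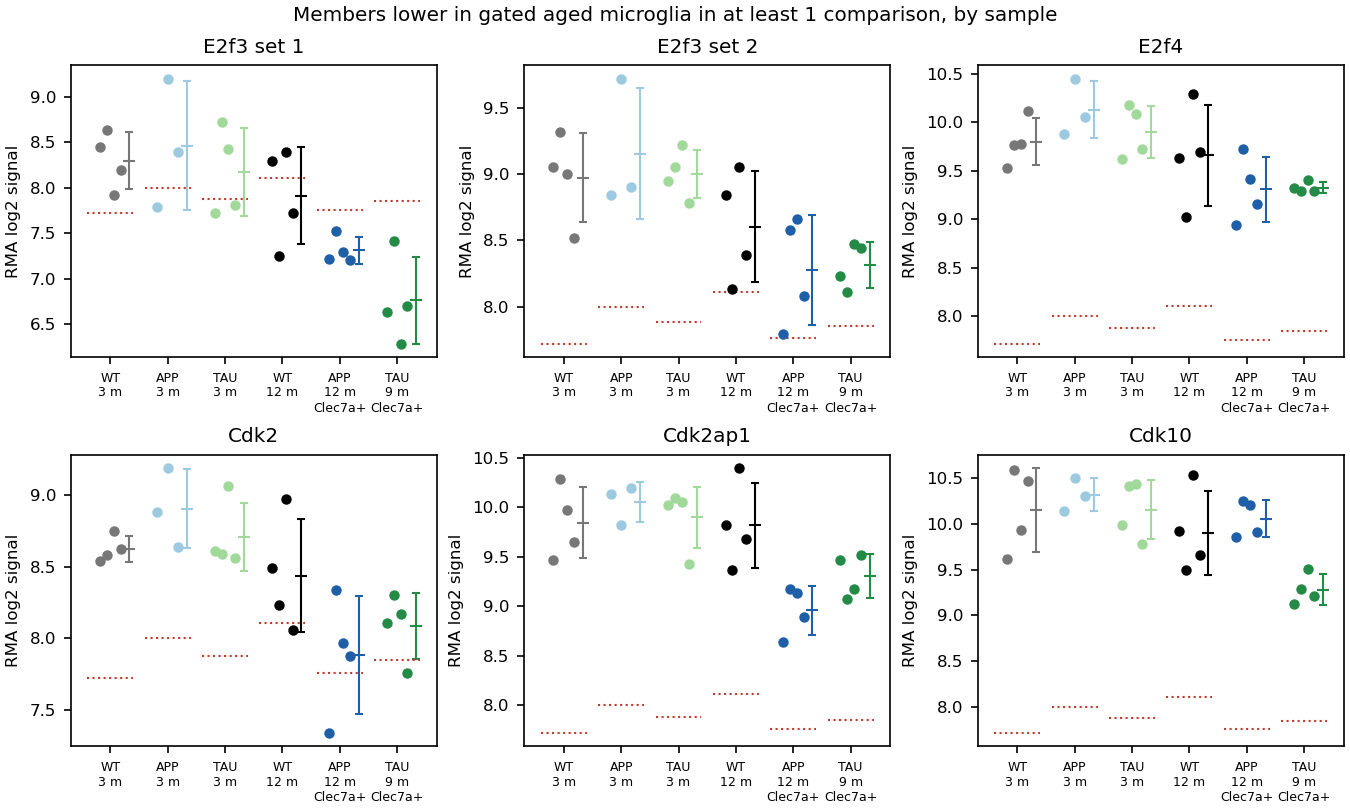
Points are single samples of the 6 groups on the RMA log2 scale, with its own range in each panel; bars give the mean ± SD and dotted red lines the background of the group. The means of E2f3 set 1 are at background in both gated groups (7.31 and 6.76) and in aged WT (7.91), Cdk2ap1 is lowest in gated APP (8.96) and Cdk10 in gated TAU (9.28).

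Within the lines, 12 members were called in gated APP against young APP (7 higher and 5 lower, 11.2% against 12.1% of all probe sets, of which 6.19% higher and 5.95% lower) and 11 in gated TAU against young TAU (8 higher and 3 lower, 10.3% against 13.5%, of which 6.67% higher and 6.81% lower). The APP count was 7 without APP 3 months replicate 2 and also 7 without replicate 3. With array weights it was 21, and so was that of TAU. Strain is constant in these comparisons, while age, pathology and gate differ together. The Y-linked mean differed too in APP, at 4.14 to 4.62 in young and 4.16 to 7.13 in gated samples. With it as a covariate, the APP calls of Mki67, Cdca3, Cdkn2d and E2f4 were lost (adjusted p 0.0633, 0.11, 0.187 and 0.0553, limma). In TAU those of Aurka, Ccndbp1 and Cdk16 were lost (0.0656, 0.0585 and 0.0518). Of the members, 3 had an interaction with age in APP (2.8% against 3.8%) and 5 in TAU (4.67% against 3.75%), all above 0: Cdk1, Cdk18 and Cdkn1a in both, and Cenpa and Plk2 in TAU. With array weights, 6 were called in APP.

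**Figure D5:**
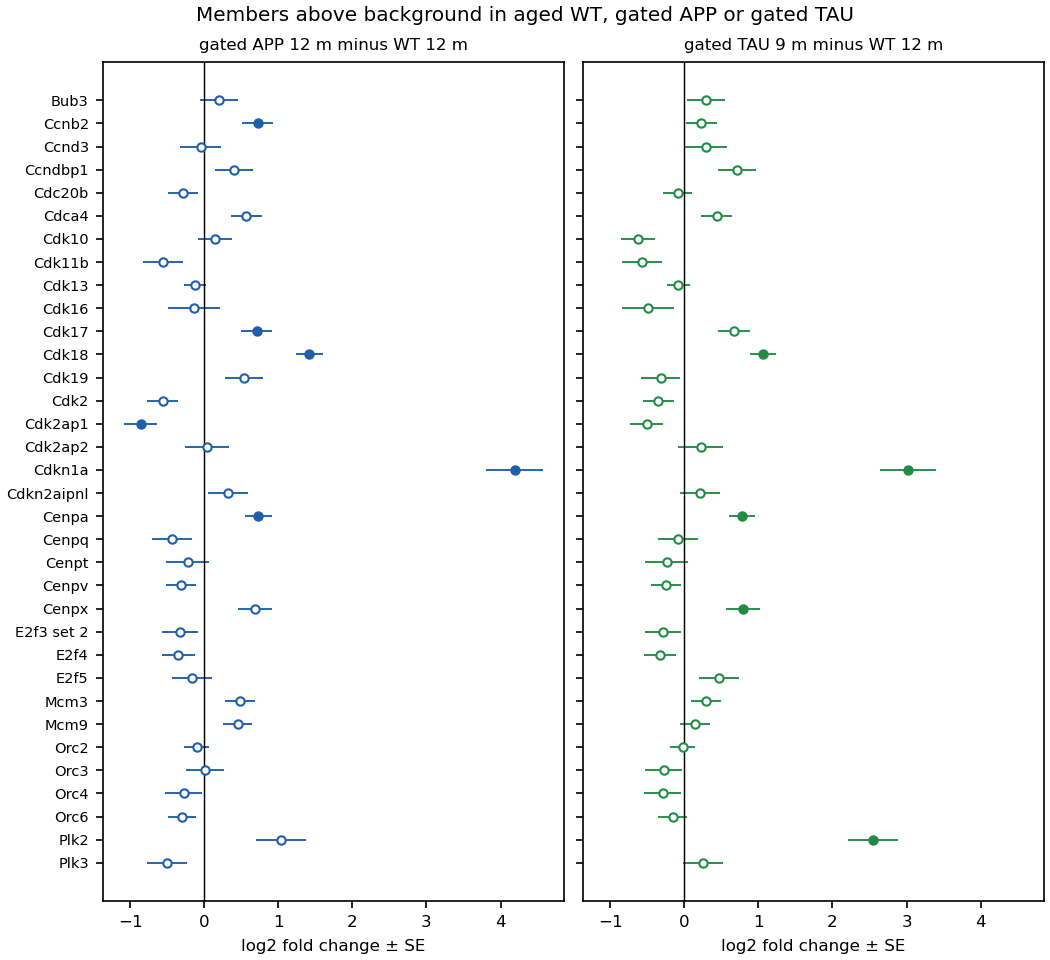
Points give the log2 difference from aged WT (horizontal axis, bars ± SE) of the members above background in aged WT, gated APP or gated TAU, with gated APP on the left and gated TAU on the right; filled points passed an adjusted p of 0.05. Cdkn1a lies furthest right in both panels (4.19 and 3.02), Plk2 follows in gated TAU (2.55), and most open points lie near 0.

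The gated groups, which differ together in strain, pathology and age (12 months in APP, 9 months in TAU), were also compared directly. Of the 107 members, 1 was called (0.935% against 0.928% of all probe sets): Plk2 was 2.86-fold lower in gated APP than in gated TAU (log2 -1.52 ± 0.34, adjusted p = 0.0247, limma), with samples from 8.62 to 9.80 against 10.16 to 11.71. Same-numbered samples of these groups deviated together, and with the replicate number as a block 2 members were called, Plk2 (adjusted p = 0.00257) and Mki67 (0.94 higher in gated APP, adjusted p = 0.04, 0.0629 without the block, limma). Mki67 is at background in both groups. With the arrays centred on their medians, Mki67 was called (0.0491) and Plk2 was not (0.0511). The Plk2 call was also lost without gated APP replicate 1 (0.0848) or 4 (0.105), without gated TAU replicate 2 (0.124) or 3 (0.0575), and with the compared groups alone in the fit (0.138). Its direction was the same in all of these.

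No member was called between ungated groups. Aged against young WT gave 0 calls among the members (0.036% of all probe sets), and 8 of 107 at an unadjusted p under 0.05 (7.48% against 8.95% of all, limma). Young APP against young WT gave 0 calls (0% of all), with 2 at an unadjusted p under 0.05 (1.87% against 2.92%, limma), the lowest being Top2a (6.23 against 5.62, unadjusted p = 0.00777, at background). Young TAU against young WT gave 0 calls (0% of all), with 7 at an unadjusted p under 0.05 (6.54% against 4.15%, limma). Among the members above background in a compared group, the log2 differences ran from -0.52 to 0.14 with age in WT, from -0.50 to 0.48 in young APP and from -0.71 to 0.46 in young TAU.

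Other genes of the pathway, taken from lists of replication, mitosis and cell cycle brakes that hold no member, were set against the shares of all probe sets called, given above. Of 34 measured replication genes, 0 were called in gated APP against aged WT (9.08% of all probe sets), and 1 rose (Gins2) and 2 fell (Rpa2, Cdc7) in gated TAU (8.76% of all). Gins2 was at background in both of these groups, and 1 of the 2 that fell was above it in a compared group. Against young TAU, 4 replication genes rose in gated TAU (Gins1, Pole, Lig1 and Gins2) and 0 fell (13.5% of all called). Of these 4, 1 was above background in a compared group. Gins2 passed the interaction with age, at background in all groups compared. Against young APP, 0 were called in gated APP. The proliferation marker Pcna, which also serves DNA repair, was well detected and gave 13.75 in aged WT, 13.31 in gated APP (adjusted p = 0.354) and 13.21 in gated TAU (adjusted p = 0.235, limma). Of 49 mitosis genes, 1 fell in gated APP, the condensin subunit Ncaph (8.88 to 7.72, adjusted p = 0.0143, limma). In gated TAU, Hmmr rose (7.08 to 7.92, adjusted p = 0.0432) and Ncaph (8.88 to 7.76, adjusted p = 0.0196, both limma) and Mybl2, at background, fell. Hmmr rose from a background level, and Ncaph fell to one in both gated groups. Against the young mice, Nusap1, at background in both groups, rose and Ncaph fell in gated APP, and Ckap2l and Hmmr rose in gated TAU. Against aged WT, the medians of the log2 difference over the replication and mitosis lists were between 0.02 and 0.09, against -0.06 and -0.05 over all probe sets.

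Of 31 brakes and regulators (list medians -0.05 in gated APP and 0.01 in gated TAU), Btg2, an antiproliferative gene, fell in both comparisons, from 14.57 to 13.36 in gated APP (log2 -1.21 ± 0.26, adjusted p = 0.00326) and to 13.31 in gated TAU (-1.26 ± 0.26, adjusted p = 0.00284, limma). The stress gene Gadd45a rose in gated APP (7.68 to 8.67, adjusted p = 0.000648, limma), from a background level. Gadd45b (12.30 to 13.37, adjusted p = 0.0131) and Pkmyt1, an inhibitory kinase of Cdk1 (7.81 to 8.94, adjusted p = 0.0079, limma), rose in gated TAU, Pkmyt1 also from a background level. Against the young mice, Btg2 fell and Gadd45b rose in both lines, with Gadd45a higher in gated APP and Cdk4 and Pkmyt1 in gated TAU.

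Markers of cells that could carry division genes into the sort were measured beside these results. Oligodendrocyte precursor markers (0 of 4 above background in any group), T and NK cell markers (0 of 7) and monocyte markers (0 of 3) were at background throughout, and neutrophil markers were at background in both gated groups (0 of 8). The neutrophil list mean was between 6.24 and 7.66 in aged WT and did not exceed 5.95 in gated APP, and S100a8 was lower in gated APP (4.54 against 7.07, adjusted p = 0.00861) and gated TAU (4.95, adjusted p = 0.0323, limma). S100a8 was at background in aged WT as well, where 1 of the 8 neutrophil markers was above it. Of the 10 microglia markers, 6 fell in gated APP and 7 in gated TAU against aged WT, with list means between 15.10 and 15.56 in aged WT, 13.95 and 14.38 in gated APP and 14.14 and 14.43 in gated TAU. Of 5 endothelial and pericyte markers, Flt1 was higher in gated APP and Pecam1, at background in both groups, lower. The list means lay between 6.39 and 8.06 against 6.36 and 7.18 in aged WT. Gfap, of 5 astrocyte markers, was higher in gated APP, and of 6 border macrophage markers Cbr2 was lower there. Neuron markers were above background in every group (3 of 4). Their list means were 7.22 to 8.46 in aged WT, 7.4 to 8.47 in gated APP and 7.66 to 9.94 in gated TAU. Oligodendrocyte markers were above background in every group in 1 of 3, and B cell markers in 1 of 3 in young WT and young APP alone. No neuron, oligodendrocyte or B cell marker was called against aged WT. Against young APP, where Cdk2, Cdk2ap1, E2f3 and E2f4 fell, gated APP was lower in 5 of 6 border macrophage markers (Mrc1, Cd163, Lyve1, Cbr2 and F13a1), in the astrocyte markers Slc1a2 and Aldoc and in Pecam1 and S100a8, and higher in Gfap and Flt1. Of these 5 border macrophage markers, 2 were above background in a compared group, and S100a8 was not. Against young TAU, gated TAU was lower in Slc1a2, Pecam1, S100a8 and Ngp and higher in Cd8a, which was at background in both groups. Of S100a8 and Ngp, 1 was above background in a compared group. Microglia markers, all above background, fell against the young mice too, 6 of 10 in gated APP (list median log2 -1.01) and 7 of 10 in gated TAU (-0.91). Between the gated groups, Mrc1 was lower and Gfap and Flt1 were higher in gated APP. The part of these shifts in the results was not tested.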

How the data were processed

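Total RNA of 23 samples was labelled with a kit for small amounts of RNA and hybridised to mouse arrays, per the labels' protocols. The authors deposited RMA values on the log2 scale, 1 per probe set, for which the submitters' processing notes name the Transcriptome Analysis Console; versions, parameters, filters and genome build are not given in the sources used here. Symbols came from the platform annotation, in which 19572 of 22203 probe sets had 1 symbol. The values were used as deposited, without a filter. limma 3.58.1 under R 4.3.3 fitted group means to all 23 samples at once, and eBayes moderated the variances with no trend (17 residual and 5.11 prior degrees of freedom). Contrasts were two-sided, with Benjamini-Hochberg adjustment over all 22203 probe sets and calls at 0.05; every adjusted p in the text is from this fit or a named alternative of it. The script was tested on simulated data.

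Members are named where called, where they are reference genes of the cycle, where among the 10 highest, or where among the 5 largest uncalled differences of a contrast; members named as close to the background or as examples of a role fall outside this and were chosen after their values were seen. The members and gene lists were chosen with earlier results of these data known. Levels of different probe sets are not comparable. Where both groups are at background no fold is given, and where 1 is, the fold is a lower bound against the background level. Precision is limited by the number of arrays: a log2 difference had a median SE of 0.226, or 0.244 where young APP enters. The sample titles state no pairing by replicate number. Deviations of same-numbered samples correlated at 0.18 to 0.42 between the gated groups (4 of 4 pairs above 0.1). Between gated APP and aged WT they correlated at 0.02 to 0.47 (3 of 4 pairs above 0.1). Between gated TAU and aged WT the range was 0.06 to 0.42 (3 of 4 pairs). Not all pairs of the other contrasts exceeded 0.1. Alternatives were the compared groups alone, an intensity trend, array weights, centring, a filter on dim probe sets, the replicate block, the Y-linked mean as covariate, and leaving out samples.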

Additional observations from a re-analysis of the deposited data

Results flagged for a closer look

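Single samples stood apart from the rest of their group, by the gap to the nearest sample as a share of the group's range, in 19 of 265 groups tested over the 53 named members (7.17%); chance flags about 1 in 20. Among the members above background, Cdkn1a was lowest in gated APP replicate 4 (14.12, next 14.91, gap share 0.95), Ccnb2 in gated APP replicate 3 (7.83, next 8.41, 0.87), Mcm9 in gated APP replicate 1 (7.23, next 8.16, 0.88) and Bub3 in gated TAU replicate 4 (11.19, next 11.75, 0.89). Cdk19 was highest in gated APP replicate 1 (13.84, next 13.32, 0.91). In young TAU, Cdk13 (10.37, gap share 0.92) and Cdk2 (9.06, gap share 0.9) were highest in replicate 3 and Cdk2ap1 was lowest in replicate 4 (9.43, gap share 0.89). In young WT, Cdk17 was lowest in replicate 1 (7.73, gap share 0.89) and Mcm3ap highest in replicate 4 (8.13, gap share 0.88).

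The other 9 were at background in their group. Mki67 was lowest in WT 12 months replicate 3 (5.68, next 6.59, gap share 0.94), and Cdk17 in WT 12 months replicate 2 (7.36, 0.84). Cdkn2aip was highest in gated TAU replicate 3 (8.41, 0.97) and Mcm6 in gated APP replicate 1 (next 7.43, 0.85). In young TAU, Aurka was lowest in replicate 1 (5.48, 0.88), Cdk18 highest (7.60, 0.92) and E2f5 lowest (7.13, 0.89) in replicate 4, and Mcm9 highest in replicate 3 (7.64, 0.86). Cdk2ap2 was lowest in WT 3 months replicate 1 (6.98, 0.92).

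Differences between groups under the same contrast were called 9 times with limma. The interaction with age set gated minus young samples of a line against aged minus young WT. In APP it was 2.44 for Cdk1 (adjusted p = 0.00934), 1.36 for Cdk18 (0.00236) and 4.39 for Cdkn1a (1.95e-05). In TAU it was 2.69 for Cdk1 (adjusted p = 0.00359), 1.14 for Cdk18 (0.00935), 3.12 for Cdkn1a (0.000877), 0.93 for Cenpa (0.0388) and 3.26 for Plk2 (0.000156). Gated APP minus gated TAU was -1.52 for Plk2 (adjusted p = 0.0247). Cdk1 is at background in all groups, so its values describe a probe set near its lower end.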

How the results depend on the processing

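Over 811 alternative values of the 50 member differences that were called, 679 kept their direction and their call, 132 kept the direction and lost the call, and 0 reversed. Against aged WT, the calls of Cdkn1a, Cdk18 and Cdk1 in both gated groups, of Plk2 in gated TAU and of Mki67 in gated APP held under every alternative run, where the filter on dim probe sets left out Cdk1 and Mki67. With the compared groups alone in the fit, the count of members called was 4 in gated APP and 5 in gated TAU against aged WT, 0 between the gated groups and 7 in gated APP against young APP. Array weights gave 21 calls in gated APP against young APP, 21 in gated TAU against young TAU and 6 in the APP interaction. The replicate block gave 2 between the gated groups and 11 in gated APP and 10 in gated TAU against aged WT. It gave 14 and 15 against the young mice of the line, 4 and 5 in the interactions and 0 in the 3 ungated comparisons. The sample titles state no pairing for any of these. Leaving out 1 sample at a time gave 6 to 11 in gated APP and 5 to 12 in gated TAU against aged WT, 0 to 1 between the gated groups (0 without gated TAU replicate 3), 0 to 0 in the ungated comparisons, 7 to 12 and 8 to 13 against the young mice, and 3 to 4 and 4 to 6 in the interactions. Without WT 12 months replicates 2 and 4, 6 members were called in each gated group against aged WT. The 99th percentile as background left 23 members above it. Signal over background is a limit, since 69 members are at background in every group and their differences have no fold.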
